A study of Homo sapiens with 3 samples.

Results

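The genes described here are 10 genes grouped as luminal keratins and epithelial adhesion genes. They include the keratins KRT8, KRT18 and KRT19, the adhesion molecules CDH1 and EPCAM, and the claudins CLDN4 and CLDN7. The rest are the receptor ERBB3 and the secretory pathway genes AGR2 and TFF3. All 10 were chosen by symbol and were found among the 22613 genes listed in each library. They were followed in LNCaP-abl cells, a subline of LNCaP prostate cancer cells that grows without androgen and was kept in steroid-stripped serum, to see how expression differs once the transcription factor E2F1 is silenced. RNA was sequenced 72 h after lipid transfection with pooled siRNAs that target E2F1 (siE2F1, 1 library) or with control siRNA (2 libraries, control 0 and control 1). All 3 libraries come from 1 cell line. The siE2F1 library has no replicate, and whether the controls were separate cultures is not stated. P-values therefore rest only on the spread between those 2 libraries, taken per gene and moderated across all genes tested. That spread may be technical.

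Luminal epithelial cells line glands. Their cytoskeleton is built from keratin filaments, in which a type II keratin such as KRT8 pairs with a type I keratin such as KRT18 or KRT19. Neighbouring cells are held together by E-cadherin (CDH1), which is anchored to actin through catenins, and are sealed by claudins in tight junctions. Loss of these proteins with gain of mesenchymal ones is known as epithelial-mesenchymal transition, in which factors such as SNAI1 and ZEB1 bind E-box sequences and repress epithelial genes. E2F1 is best known for activating genes of DNA replication and S phase entry.

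E2F1 itself was at 1.68 FPKM in siE2F1, against 10.6 FPKM in each control (FPKM, fragments scaled by transcript length and by sequencing depth). It fell by 2.12 on the log2(FPKM + 1) scale, which all log2 fold changes here use (standard error 0.0605, limma adjusted p = 0.0311). That call was lost with a pseudocount of 0.1 (log2 fold change -2.59, adjusted p = 0.0601) and when low genes were not filtered out (adjusted p = 0.159). Depth is unknown because the files hold no counts, and the 3 libraries have nearly the same distribution of values, so a change shared by most genes could not be seen.

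Of the 10 genes, 8 were higher in siE2F1 than in either control, 2 lay between the controls (EPCAM and KRT19) and 0 were below both. Among all listed genes 39.2% were above both controls and 36.6% below both. KRT19 had a mean under 1 FPKM and was not tested, and the other 9 were among the 14401 genes tested, of which 43.7% were above both controls and 39.7% below both. With limma, 0 of the 9 passed at an adjusted p of 0.05, where 0.312% of all genes tested passed as higher and 0.104% as lower. At an unadjusted p under 0.05, 4 of the 9 (KRT8, CLDN4, ERBB3 and TFF3) were higher and 0 lower, against 13.5% of all genes tested on the higher side and 14.9% on the lower. The median log2 fold change of the 9 was 0.42, against 0.01 over all genes tested. The median difference between the controls (control 1 minus control 0) was -0.005 for the 9 and 0.002 over all genes tested. In each of the 8 genes above both controls, the distance to the nearer control was larger than the distance between the controls, a margin that 30.4% of all genes tested showed on the higher side.

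The fit was repeated without small RNA genes, which are short and have unsteady FPKM. Then 4.17% of the 13928 remaining genes passed as higher and 6.36% as lower, and again 0 of the 9 passed, with 6 higher and 0 lower at an unadjusted p under 0.05 (16.2% and 17.2% of the remaining genes). CLDN4 (limma adjusted p = 0.05003) and KRT8 (adjusted p = 0.0539) came nearest. Each difference below is therefore a measurement of these 3 libraries and not a call.

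**Figure D1:**
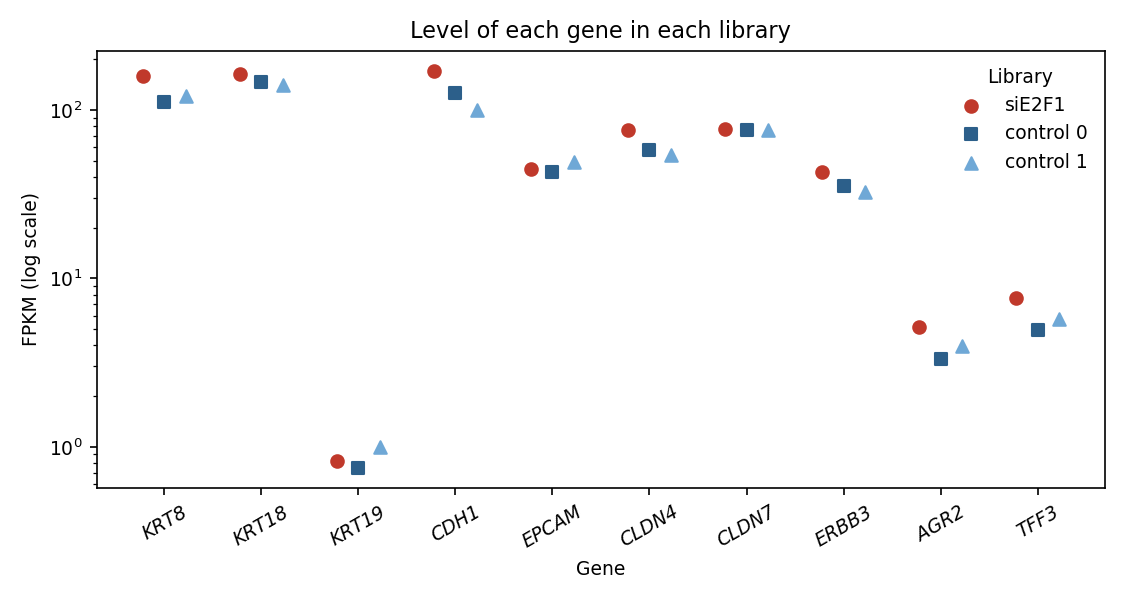
FPKM of each of the 10 genes (log axis) in siE2F1 (circles), control 0 (squares) and control 1 (triangles), 1 point per library. KRT8, KRT18 and CDH1 lie above 100 FPKM in every library and KRT19 below 1 FPKM in every library, and the siE2F1 point is highest for 8 of the 10 genes.

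KRT8 and KRT18, the partners of the main luminal filament, were among the most abundant transcripts. KRT8 was at 159.0 FPKM in siE2F1, against 110.6 FPKM in control 0 and 121.0 FPKM in control 1. The siE2F1 level was 1.44 times that of control 0 and 1.31 times that of control 1, and the log2 fold change was 0.45 (standard error 0.0924, limma adjusted p = 0.131). KRT18 was at 163.7 FPKM in siE2F1, against 146.5 FPKM in control 0 and 140.9 FPKM in control 1. Its log2 fold change was smaller, 0.19 (standard error 0.0696, limma adjusted p = 0.223), and on the log2 scale it exceeded the nearer control by 0.16. KRT18 had a higher level than 98.2% of listed genes in siE2F1, 98.0% in control 0 and 97.9% in control 1, and KRT8 a higher level than 98.2%, 97.2% and 97.5% in those libraries. The ratio of the KRT8 level to the KRT18 level, both in FPKM, was 0.971 in siE2F1, against 0.755 in control 0 and 0.859 in control 1. The 2 levels were thus nearest to each other in siE2F1, although the controls also differed in this ratio.

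KRT19, the smallest type I keratin, had the lowest level of the 10 genes, higher than 34.6% of listed genes in siE2F1, 33.5% in control 0 and 36.9% in control 1. It was at 0.820 FPKM in siE2F1, against 0.748 FPKM in control 0 and 0.998 FPKM in control 1. The siE2F1 value lay between the controls, and the KRT19 level was 0.00501 times that of KRT18 in siE2F1, against 0.00511 times in control 0 and 0.00708 times in control 1. Of these 2 type I keratins, KRT18 thus gave nearly all of the transcript level in every library. Keratins 8, 18 and 19 have many processed pseudogenes with near-identical sequence, so their FPKM is uncertain where reads were shared. KRT18P55 was listed at 1.32 FPKM in siE2F1, against 1.35 FPKM in control 0 and 1.31 FPKM in control 1, and KRT8P41 at 1.09 FPKM, against 0.962 FPKM and 1.03 FPKM. These levels are small beside those of KRT8 and KRT18. No pseudogene named for KRT19 was listed, and the part of shared reads was not tested.

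Apart from KRT10, the other keratins measured were under 1 FPKM in every library. Those that were not measured have no value here. Of 4 further simple keratins 2 were measured, KRT20 and KRT80, and both were under 1 FPKM in every library. Of 11 stratified and basal keratins 6 were measured and only KRT10 was high enough to test, at 11.9 FPKM in siE2F1, against 10.997 FPKM in control 0 and 12.5 FPKM in control 1. KRT14, which marks basal cells, was listed at 0 in all 3 libraries. Plakins, the large proteins that tie keratin filaments to junctions, were higher than both controls in 5 of 5 tested genes (43.7% of all genes tested). Their median log2 fold change was 0.22, but 0 passed limma, with or without small RNA genes. The controls differed in the same genes by a median of -0.21 (control 1 minus control 0). Desmoplakin (DSP), which anchors filaments at desmosomes, was at 34.4 FPKM in siE2F1, against 25.1 FPKM in control 0 and 20.2 FPKM in control 1 (log2 fold change 0.59, limma adjusted p = 0.173). MACF1, a plakin that also links microtubules and actin, had a log2 fold change of 0.50 (limma adjusted p = 0.151), and PLEC, plectin, of 0.22 (adjusted p = 0.483).

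CDH1 had the highest log2 fold change of the 10 genes and also the widest gap between its controls. It was at 170.9 FPKM in siE2F1, against 125.5 FPKM in control 0 and 100.3 FPKM in control 1. The siE2F1 level was 1.36 times that of control 0 and 1.70 times that of control 1, and the log2 fold change was 0.60 (standard error 0.180, limma adjusted p = 0.180). On the log2 scale siE2F1 exceeded control 0 by 0.44, where control 1 was 0.32 below control 0. CDH1 therefore had the largest standard error of the 9 tested genes, and its unadjusted p was 0.0521.

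Catenins, which connect E-cadherin to actin, had smaller log2 fold changes than CDH1. Beta-catenin (CTNNB1) was at 153.5 FPKM in siE2F1, against 124.5 FPKM in control 0 and 126.4 FPKM in control 1 (log2 fold change 0.29, limma adjusted p = 0.139). Alpha-catenin (CTNNA1), at 88.2 FPKM in siE2F1, lay between control 0 at 95.3 FPKM and control 1 at 83.5 FPKM. The CDH1 level was 1.11 times that of CTNNB1 in siE2F1, against 1.01 times in control 0 and 0.794 times in control 1. Of 12 tested genes in the adherens junction list 7 were above both controls and 2 below (43.7% and 39.7% of all genes tested). Their median log2 fold change was 0.12, and 0 passed limma in either fit. At an unadjusted p under 0.05, 4 were higher and 1 lower (13.5% and 14.9% of all genes tested). Vinculin (VCL), which strengthens the actin link under tension, was at 39.4 FPKM in siE2F1, against 29.2 FPKM in control 0 and 25.7 FPKM in control 1 (log2 fold change 0.51, limma adjusted p = 0.139), and LIMA1, an actin-bundling protein, had a log2 fold change of 0.28 (adjusted p = 0.137).

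EPCAM, a homophilic adhesion molecule of simple epithelia, lay between the controls. It was at 44.7 FPKM in siE2F1, against 42.8 FPKM in control 0 and 48.7 FPKM in control 1 (log2 fold change -0.03, standard error 0.115, limma adjusted p = 0.875). Its sign thus depended on the control used: siE2F1 was 0.06 above control 0 and 0.12 below control 1 on the log2 scale. Of 8 tested genes in the list of EPCAM relatives and membrane proteases, 6 were above both controls and 2 below, and 0 passed limma. Over all genes tested 43.7% were above both and 39.7% below both. Without small RNA genes 1 passed as higher and 1 as lower (4.17% and 6.36% of the remaining genes). The higher one was PRSS8, the membrane-anchored protease prostasin, at 81.4 FPKM in siE2F1, against 52.9 FPKM in control 0 and 53.3 FPKM in control 1 (log2 fold change 0.61, adjusted p = 0.0353 without small RNA genes and 0.111 over all genes tested). The lower one was PSEN2, a catalytic subunit of gamma-secretase, at 5.52 FPKM in siE2F1, against 9.61 FPKM in control 0 and 9.37 FPKM in control 1 (log2 fold change -0.69, adjusted p = 0.0343 without small RNA genes and 0.111 over all genes tested).

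The 2 claudins among the 10 genes gave different values. Claudins are membrane proteins that set the permeability of tight junctions. CLDN4 was at 75.6 FPKM in siE2F1, against 57.5 FPKM in control 0 and 53.8 FPKM in control 1. The siE2F1 level was 1.32 times that of control 0 and 1.41 times that of control 1 (log2 fold change 0.44, standard error 0.0786, limma adjusted p = 0.123, the lowest of the 9). CLDN7 was at 76.8 FPKM in siE2F1, against 76.3 FPKM in control 0 and 76.1 FPKM in control 1 (log2 fold change 0.01, standard error 0.0614, limma adjusted p = 0.923). CLDN7 counts among the 8 genes above both controls by a difference of 0.008 on the log2 scale. The ratio of the CLDN4 level to the CLDN7 level, both in FPKM, was 0.985 in siE2F1, against 0.753 in control 0 and 0.707 in control 1. The difference between the fold changes of the 2 genes was not tested.

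Their start regions are shown to set the 2 genes side by side, with log2 fold changes of 0.44 for CLDN4 and 0.01 for CLDN7. RefSeq windows of 300 bases (250 before and 50 after a start, GRCh38.p14) matched 4 of the 10 genes by symbol: KRT8, CLDN4, AGR2 and CLDN7, which has 2 starts. The CLDN4 window is chr7:73830746-73831045 on the plus strand, and that of the downstream CLDN7 start is chr17:7262429-7262728 on the minus strand. Capitals mark the E-box hexamer CACCTG on either strand (CAGGTG when read on the other), a sequence bound by SNAI1 and ZEB1; this motif was added with the values known.
CLDN4: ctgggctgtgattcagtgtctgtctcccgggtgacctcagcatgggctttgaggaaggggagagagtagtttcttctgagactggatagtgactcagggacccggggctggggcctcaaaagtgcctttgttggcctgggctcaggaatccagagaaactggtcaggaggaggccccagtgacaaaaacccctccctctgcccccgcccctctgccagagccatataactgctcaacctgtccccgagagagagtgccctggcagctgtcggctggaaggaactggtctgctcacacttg
CLDN7: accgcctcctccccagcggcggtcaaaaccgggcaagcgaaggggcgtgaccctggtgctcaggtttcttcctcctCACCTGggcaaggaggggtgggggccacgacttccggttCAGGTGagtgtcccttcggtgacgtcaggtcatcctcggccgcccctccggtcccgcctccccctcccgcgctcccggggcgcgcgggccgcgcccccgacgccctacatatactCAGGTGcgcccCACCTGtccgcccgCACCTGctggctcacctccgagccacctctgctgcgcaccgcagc
The hexamer occurs 5 times in the CLDN7 window and 0 times in the CLDN4, KRT8 and other CLDN7 windows. AGR2 has 1, near the end of its window. Among all 35116 windows, 20.6% hold at least 1 such hexamer and 0.0940% hold at least 5. The cut of 5 is the CLDN7 count itself, so the latter share is a description and tests nothing. The E2F octamers TTTCCCGC, TTTGGCGC, TTTCGCGC and TTTGCCGC, searched on both strands, were in 0 of the 5 windows of these 4 genes, against 3.31% of all windows. The window of E2F1 itself holds 2, on opposite strands. A match or its absence says only which letters stand in these windows.

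Other tight junction genes split. Of 5 other claudins tested 2 were above both controls and 2 below (43.7% and 39.7% of all genes tested). With limma 0 passed, while 1 passed as lower without small RNA genes (6.36% of the remaining genes). That was CLDN12, at 23.6 FPKM in siE2F1, against 33.99 FPKM in control 0 and 34.2 FPKM in control 1 (log2 fold change -0.52, adjusted p = 0.0379 without small RNA genes and 0.111 over all genes tested). CLDN3, the gene next to CLDN4 in RefSeq order, was at 2.57 FPKM in siE2F1, against 2.15 FPKM in control 0 and 2.14 FPKM in control 1. CLDN23 had a log2 fold change of -0.43 (limma adjusted p = 0.159) and CLDN8 of 0.26 (adjusted p = 0.316). Among 15 tested tight junction and polarity genes 8 stood above both controls and 4 under both (43.7% and 39.7% of all genes tested). Their median log2 fold change was 0.05, and 0 passed limma. Without small RNA genes 1 passed in each direction (4.17% of the remaining genes as higher and 6.36% as lower). Cingulin (CGN), a cytoplasmic scaffold of tight junctions, was at 32.2 FPKM in siE2F1, against 17.7 FPKM in control 0 and 14.8 FPKM in control 1 (log2 fold change 0.95, adjusted p = 0.0365 without small RNA genes and 0.112 over all genes tested). F11R, the junctional adhesion molecule JAM-A, was at 24.9 FPKM in siE2F1, against 34.9 FPKM in control 0 and 34.4 FPKM in control 1 (log2 fold change -0.46, adjusted p = 0.0409 without small RNA genes and 0.111 over all genes tested).

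Desmosome genes showed no common direction, with 3 of 7 tested above both controls and 4 below (43.7% and 39.7% of all genes tested). Their median log2 fold change was -0.07, and 0 passed limma in either fit. Besides DSP, the furthest were the desmosomal cadherin DSG2, at 6.33 FPKM in siE2F1, against 7.79 FPKM in control 0 and 7.90 FPKM in control 1, and PERP, at 25.9 FPKM in siE2F1, against 29.5 FPKM in each control. Their log2 fold changes were -0.27 and -0.18 (limma adjusted p = 0.140 and 0.198).

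**Figure D2:**
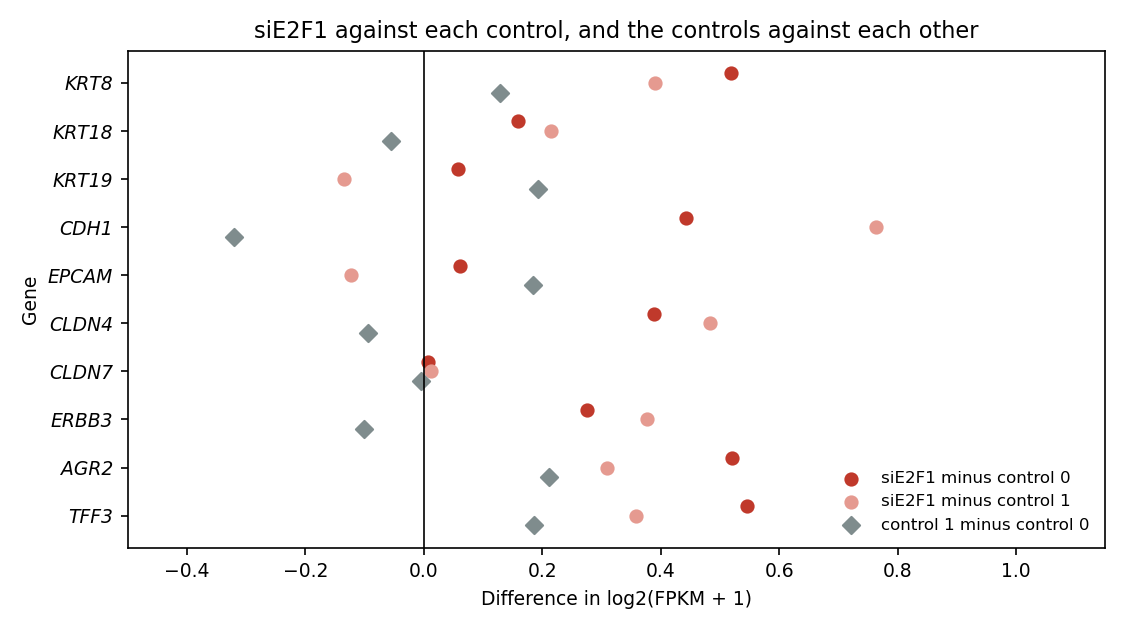
Difference in log2(FPKM + 1) for each of the 10 genes, siE2F1 minus control 0 (dark red), siE2F1 minus control 1 (light red) and control 1 minus control 0 (grey diamonds). Both red points lie right of 0 for 8 genes, on opposite sides of 0 for KRT19 and EPCAM, and the grey point of CDH1 is the farthest from 0, at -0.32.

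ERBB3, a receptor of the EGF receptor family that binds neuregulins and signals through a partner such as ERBB2, was higher than both controls. It was at 42.7 FPKM in siE2F1, against 35.1 FPKM in control 0 and 32.7 FPKM in control 1 (log2 fold change 0.33, standard error 0.0800, limma adjusted p = 0.150). Its partner ERBB2 was at 57.6 FPKM in siE2F1, against 42.5 FPKM in control 0 and 39.5 FPKM in control 1 (log2 fold change 0.48, adjusted p = 0.0460 without small RNA genes and 0.119 over all genes tested). In the list of receptors, ligands and inhibitors of this family 4 of 9 tested genes were above both controls and 4 below. Over all genes tested these shares were 43.7% and 39.7%. With limma 0 passed, and without small RNA genes ERBB2 alone passed, as higher (4.17% of the remaining genes). The ligand HBEGF was at 1.801 FPKM in siE2F1, against 3.06 FPKM in control 0 and 2.78 FPKM in control 1 (log2 fold change -0.48, limma adjusted p = 0.126). RNF41, a ubiquitin ligase that lowers ERBB3 protein, had a log2 fold change of 0.25 (adjusted p = 0.209). EGFR lay between the controls, under 2 FPKM in every library.

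AGR2 and TFF3 had the lowest levels of the tested genes and ratios to the controls like those of KRT8. AGR2, a protein disulfide isomerase that helps fold mucins, was at 5.17 FPKM in siE2F1, against 3.30 FPKM in control 0 and 3.98 FPKM in control 1 (log2 fold change 0.42, standard error 0.129, limma adjusted p = 0.186). TFF3, a secreted trefoil peptide, was at 7.64 FPKM in siE2F1, against 4.92 FPKM in control 0 and 5.73 FPKM in control 1 (log2 fold change 0.45, standard error 0.115, limma adjusted p = 0.155). On the log2 scale siE2F1 exceeded the nearer control by 0.31 for AGR2 and by 0.36 for TFF3. The controls were 0.21 apart for AGR2 and 0.19 apart for TFF3, control 1 being higher in both. The ratio of the AGR2 level to the TFF3 level differed little between libraries, at 0.677 in siE2F1, against 0.671 in control 0 and 0.694 in control 1.

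A list of 10 trefoil, AGR and secretory genes, which also holds transcription factors, had 6 measured and 5 tested. It was chosen with earlier results of these data known. All 5 tested were higher than both controls (43.7% of all genes tested were), with a median log2 fold change of 0.39. With limma 0 passed over all genes tested, and 4 were higher at an unadjusted p under 0.05 (13.5% of all genes tested). Without small RNA genes 3 passed as higher (4.17% of the remaining genes). TFF1, which lies in the same gene cluster as TFF3, was at 12.0 FPKM in siE2F1, against 5.66 FPKM in control 0 and 6.22 FPKM in control 1 (log2 fold change 0.91, adjusted p = 0.0306 without small RNA genes and 0.111 over all genes tested). TFF2, between them in RefSeq order, was at 2.19 FPKM in siE2F1, against 1.53 FPKM in control 0 and 1.42 FPKM in control 1, so the 3 trefoil genes were each above both controls. SPDEF, a transcription factor of secretory epithelium, was at 50.03 FPKM in siE2F1, against 30.9 FPKM in control 0 and 33.7 FPKM in control 1 (log2 fold change 0.62, adjusted p = 0.0390 without small RNA genes and 0.112 over all genes tested). CREB3L4, an androgen-regulated bZIP factor of the endoplasmic reticulum, had a log2 fold change of 0.39 (adjusted p = 0.0498 without small RNA genes and 0.115 over all genes tested).

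**Figure D3:**
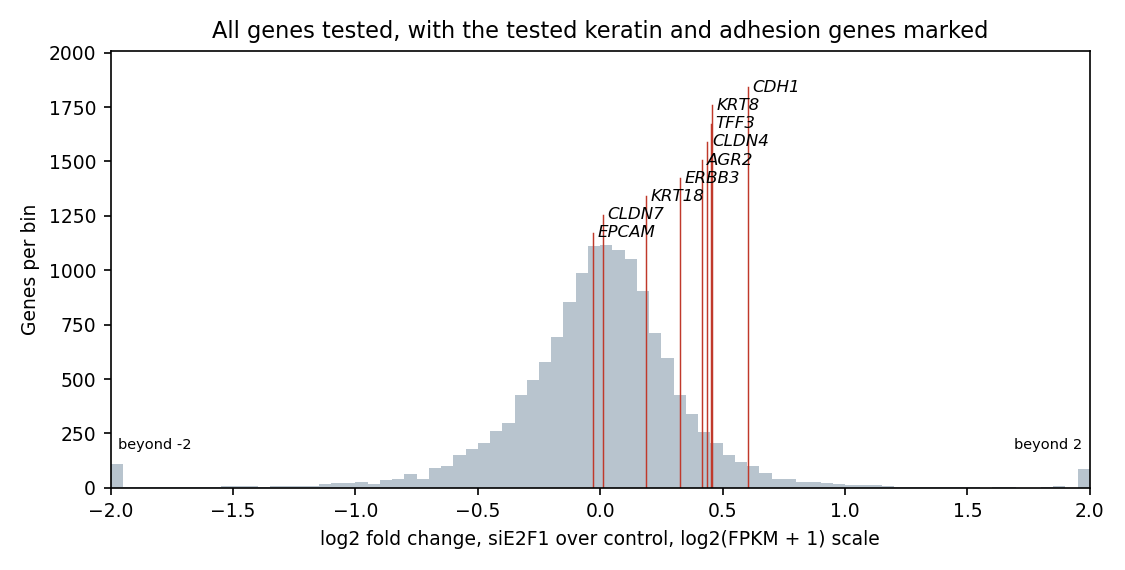
Histogram of the log2 fold change (siE2F1 over control, log2(FPKM + 1) scale) of the 14401 genes tested, with red lines at the 9 tested keratin and adhesion genes and genes beyond 2 in either direction collected in the outermost bins. EPCAM (-0.03) and CLDN7 (0.01) stand at the centre, and CDH1 (0.60) is the farthest right of the 9.

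The listed transcription and splicing factors were mixed in direction. Whether any of them, SNAI1 included, acts on the genes described here in these cells was not tested. Of 14 tested epithelial transcription and splicing factors 5 stood above both controls and 7 below (43.7% and 39.7% of all genes tested). Their median log2 fold change was -0.08. With limma 0 passed, and without small RNA genes 1 passed, ELF5, an ETS factor, at 24.8 FPKM in siE2F1, against 12.97 FPKM in control 0 and 13.5 FPKM in control 1 (log2 fold change 0.86, adjusted p = 0.0285 without small RNA genes and 0.111 over all genes tested). KLF5 was at 1.16 FPKM in siE2F1, against 2.43 FPKM in control 0 and 2.05 FPKM in control 1 (log2 fold change -0.58, limma adjusted p = 0.132), and TFAP2C had a log2 fold change of -0.41 (adjusted p = 0.153). Of 9 epithelial-mesenchymal transition factors 3 were measured and 1 could be tested. SNAI1, a repressor of CDH1, was at 0.851 FPKM in siE2F1, against 1.84 FPKM in control 0 and 1.65 FPKM in control 1 (log2 fold change -0.57, limma adjusted p = 0.121 in the whole table and 0.0540 without small RNA genes). ZEB1 was at 0.321 FPKM in siE2F1, against 0.363 FPKM in control 0 and 0.331 FPKM in control 1.

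The word luminal in the name of the group was checked against marker levels. Luminal prostate markers were present, with 9 of 11 high enough to test and summed levels of 1154 FPKM in siE2F1, against 966.5 FPKM in control 0 and 988.6 FPKM in control 1. FOLH1, which encodes PSMA, was at 338.9 FPKM in siE2F1, against 317.6 FPKM in control 0 and 338.9 FPKM in control 1. KLK2 and KLK3, the latter encoding PSA, were under 1 FPKM in every library. Of the 9 tested, 6 were above both controls and 2 below (43.7% and 39.7% of all genes tested), and 0 passed limma. Without small RNA genes 3 passed as higher and 1 as lower (4.17% and 6.36% of the remaining genes). The higher genes included ACPP, prostatic acid phosphatase (log2 fold change 1.18, adjusted p = 0.0221), and SLC45A3 (0.64, adjusted p = 0.0353), both without small RNA genes. The lower gene was TMPRSS2, a membrane serine protease, at 14.6 FPKM in siE2F1, against 20.5 FPKM in control 0 and 19.5 FPKM in control 1 (log2 fold change -0.42, adjusted p = 0.0498 without small RNA genes), named here after its values were seen. HOXB13, also below both controls, was at 94.6 FPKM in siE2F1, against 122.9 FPKM in control 0 and 118.9 FPKM in control 1. Its log2 fold change was -0.35 (limma adjusted p = 0.127), and it was likewise named after its values were seen.

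Markers of each other cell type summed to less than the luminal markers in every library, but single markers were not all low. ENO2, a neuroendocrine marker, was at 32.4 FPKM in siE2F1, against 47.4 FPKM in control 0 and 45.5 FPKM in control 1. ITGA6, a basal marker, had a higher level than AGR2 and TFF3 in every library. Basal markers had 4 of 8 genes measured and summed to 14.3 FPKM in siE2F1, against 15.1 FPKM in control 0 and 13.6 FPKM in control 1, with KRT14 at 0 and ITGB4 at a log2 fold change of 0.20 (limma adjusted p = 0.247). Mesenchymal and stromal markers had 8 of 15 measured and summed to 17.5 FPKM in siE2F1, against 19.9 FPKM in control 0 and 15.4 FPKM in control 1, and vimentin (VIM) was under 2 FPKM in every library. Their 4 tested genes went both ways: fibronectin (FN1) was at 3.49 FPKM in siE2F1, against 8.09 FPKM in control 0 and 6.30 FPKM in control 1 (log2 fold change -0.86, adjusted p = 0.0478 without small RNA genes and 0.133 over all genes tested). TAGLN, an actin-binding protein of smooth muscle, was at 9.65 FPKM in siE2F1, against 5.55 FPKM in control 0 and 4.41 FPKM in control 1 (log2 fold change 0.84, adjusted p = 0.0432 without small RNA genes and 0.126 over all genes tested), and ACTA2 had a log2 fold change of -0.23 (adjusted p = 0.381). Neuroendocrine markers had 4 of 7 measured and summed to 34.5 FPKM in siE2F1, against 49.9 FPKM in control 0 and 47.7 FPKM in control 1, nearly all of it ENO2 (log2 fold change -0.51, adjusted p = 0.0396 without small RNA genes and 0.111 over all genes tested). NCAM1 had a log2 fold change of -0.16 (adjusted p = 0.350). Leukocyte markers had 4 of 8 measured and summed to 13.5 FPKM in siE2F1, against 12.5 FPKM in control 0 and 12.8 FPKM in control 1, with CD8A at a log2 fold change of 0.31 (adjusted p = 0.195). PTPRC, the pan-leukocyte marker CD45, was too low to test, at 0.423 FPKM in siE2F1, against 0.842 FPKM in control 0 and 1.148 FPKM in control 1. Endothelial markers had 2 of 6 measured and summed to 1.16 FPKM in siE2F1, against 0.899 FPKM in control 0 and 0.993 FPKM in control 1. Their part in the values of the 10 genes was not tested. In bulk RNA, fewer cells of a kind and less RNA per cell cannot be told apart.

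**Figure D4:**
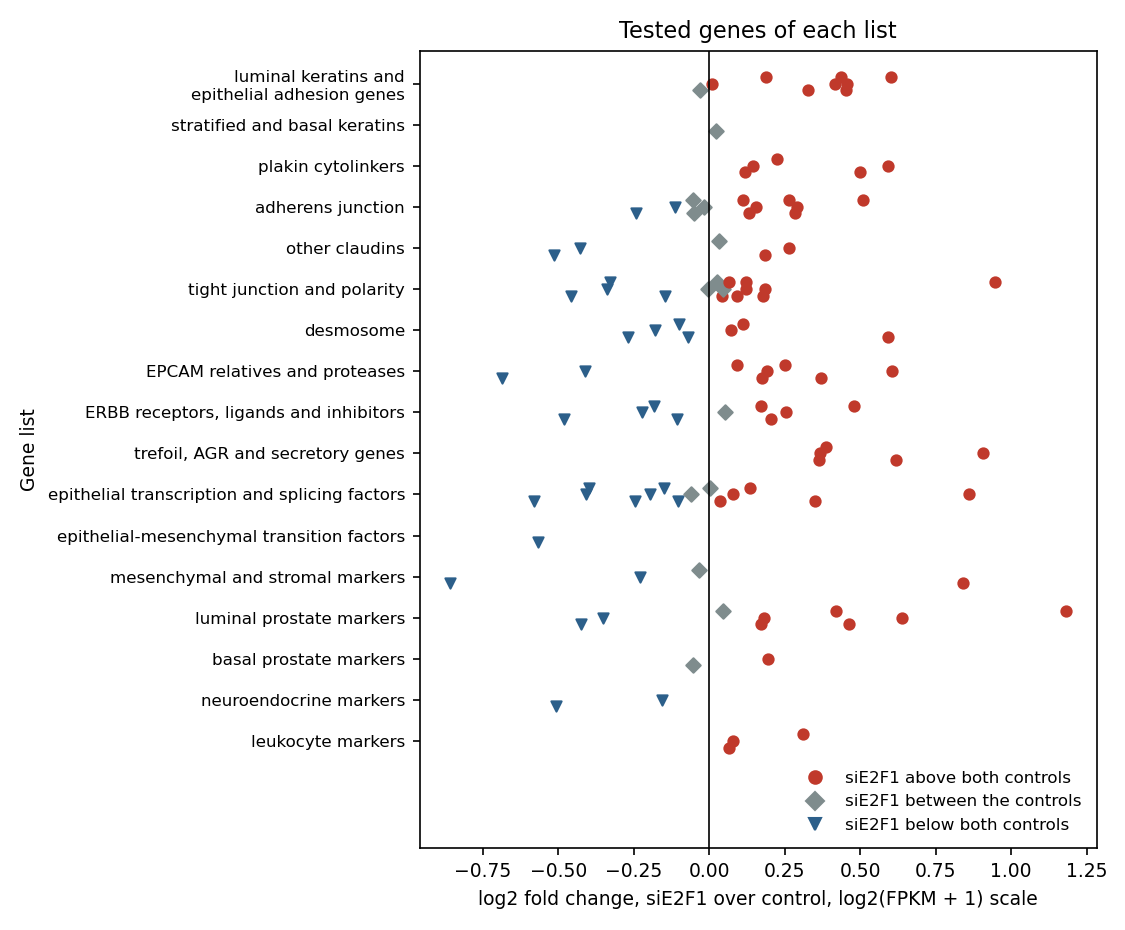
log2 fold change (siE2F1 over control, log2(FPKM + 1) scale) of every tested gene in each list, 1 point per gene, as red circles where siE2F1 was above both controls, grey diamonds where it lay between them and blue triangles where it was below both. The 9 tested keratin and adhesion genes lie between -0.03 and 0.60, the secretory and plakin lists lie right of 0, and the tight junction, desmosome and transcription factor lists spread to both sides.

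Genes next to the 10 on the chromosome did not share a single direction. EIF4B, beside KRT18, was at 183.2 FPKM in siE2F1, against 156.3 FPKM in control 0 and 157.8 FPKM in control 1. CALM2, beside EPCAM, was at 295.3 FPKM in siE2F1, against 227.3 FPKM in control 0 and 245.2 FPKM in control 1. TANGO6, beside CDH1, was at 2.44 FPKM in siE2F1, against 3.32 FPKM in control 0 and 3.19 FPKM in control 1, and PA2G4, beside ERBB3, was at 61.5 FPKM, against 76.5 FPKM and 77.8 FPKM. TSPAN13, beside AGR2, was at 28.5 FPKM in siE2F1, against 39.3 FPKM in control 0 and 40.4 FPKM in control 1. These neighbours are examples named after their values were seen, with no count made over all neighbours. None of those named passed limma over all genes tested. TSPAN13 passed as lower without small RNA genes (log2 fold change -0.47, adjusted p = 0.0409 there and 0.111 in the whole table).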

How the data were processed

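RNA from LNCaP-abl cells was sequenced 72 h after transfection (TruSeq RNA v2 libraries, per the labels' protocols). Alignment and quantification used TopHat2 2.0.4 and Cufflinks 2.0.2 with build hg19, per the submitters' processing notes; for the annotation, the sources used here name none. The authors deposited log2 FPKM values, 1 per gene and library, with no counts, so depth is unknown and no counting interval can be given. The lowest value equals log2 of 0.1; FPKM was computed as 2 to the deposited value minus 0.1, which would be 0.1 FPKM too low per gene if 0.1 was a minimum and not an addition. Sorted values of the libraries differ by at most 0.0653 log2 units, as quantile normalization gives, a step no source states.

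Analysis was on log2(FPKM + 1), a scale that understates changes of low genes. Genes averaging 1 FPKM or more were tested with limma 3.58.1 under R 4.3.3 (mean-variance trend, two-sided, Benjamini-Hochberg over all genes tested, threshold 0.05). The controls left 1 residual degree of freedom, and the siE2F1 library is assumed to vary as they do. Each gene's spread was moderated towards that of genes of like level, with 1.69 prior degrees of freedom (3.19 without small RNA genes). The limma step was tested on simulated data with planted changes larger than those of the 10 genes. That run does not show how often changes of their size would be called. Small RNA genes are those named SNOR, MIR, SCARNA or RNU without host genes. Groups came from the sample titles. The genes, the lists and the settings were chosen with earlier results of these data known. Named genes are the 10, E2F1, partners used in ratios, and from each list up to 3 tested genes with the largest absolute log2 fold change beyond both controls; others named are examples seen in the values, and some list genes are not reported here by name. Promoter windows are from RefSeq (GRCh38.p14); no coordinates of the files' build were used. Counts of genes above or below both controls need no test. The alternatives were a pseudocount of 0.1, no filter, a 5 FPKM minimum, a common median, quantile normalization, no trend, no small RNA genes, and leaving out each control.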

Additional observations from a re-analysis of the deposited data

How the results depend on the processing

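The 9 tested genes gave 0 limma calls under each of the 7 settings that allow a test, with the lowest adjusted p between 0.05003 and 0.191. A common median and quantile normalization nearly repeat the main fit, because the libraries already had nearly the same distribution of values. The lowest limma adjusted p was 0.123 in both, so they are not separate checks. Each gene kept the sign of its log2 fold change wherever it was tested, but most settings could not change it. Filters, the trend and the removal of small RNA genes act on the test and leave the fold change as it was. With a mean of at least 5 FPKM 8 of the 9 remained testable, without AGR2. Leaving out 1 control leaves no residual degree of freedom and gives values with no test. The number of the 9 above the controls used was then 8 to 9, and the number below them 0 to 1, the 1 being EPCAM without control 0. The E2F1 call was lost with a pseudocount of 0.1 (log2 fold change -2.59) and with no filter on mean FPKM (-2.12). With control 0 or control 1 left out its log2 fold change was -2.12 to -2.11. Over the whole table limma called 45 genes higher and 15 lower, against 581 and 886 without small RNA genes and 0 and 0 with no filter. It called 7 higher with a pseudocount of 0.1 and 26 higher with a mean of at least 5 FPKM. The cause of these differences was not tested. No paired analysis was possible because siE2F1 has a single library.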
